A study of Mus musculus with 444 samples.

Results

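A set of 9 genes, Lama1, Mest, Reln, Moxd1, Serpinb11, Ctnnd2, Slc6a15, Spon2 and Cpm, was followed through single mammary epithelial cells to ask whether their transcripts mark 1 shared subset of basal cells and how much contractile gene RNA such cells carry. The genes were matched by their Entrez gene identifiers and make up 9 of the 25136 genes used. They had been picked out on their measured levels in these same cells, so their levels are given as a description and nothing rests on their having been picked. The genes had been proposed as genes of immature basal cells. Maturity was not measured, and they are called the member genes here. Of the 9, Serpinb11, Moxd1 and Lama1 also stand in a gene cluster that the study itself drew from these cells, alongside contractile genes. The study also lists Lama1, Reln, Moxd1, Spon2 and Serpinb11 among basal signature genes from earlier adult basal and luminal populations.

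Cells came from the mammary glands of untreated FVB/NJ females, an inbred wild-type strain, in puberty (5 weeks of age in the methods of the study, 4 weeks in the deposited table headers) or adulthood (10 weeks). Live total epithelium depleted of blood and endothelial cells by sorting was pooled from 6 pubertal or 4 adult mice per sort in 3 independent experiments, and each cell was captured and sequenced on its own on the Fluidigm C1 device. The labels list 221 pubertal and 223 adult cells and name no animal, sort or capture for any of them. Each stage therefore counted as 1 sample, no test of a difference between stages or between sets of cells was possible, and intervals are 95% intervals for counting error only.

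The mammary duct has an inner luminal and an outer basal layer. Basal cells of the mature duct are myoepithelial: they hold keratin 14 and smooth muscle actin, contract under oxytocin and rest on the basement membrane. In puberty the ducts grow from terminal end buds, whose outermost cap cells are less differentiated basal cells that give rise to myoepithelium as the duct elongates. Several of the member genes encode parts or neighbours of the basement membrane, and others are better known from brain, embryo or kidney than from the breast.

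Coverage passed the minimum of 100000 read pairs and 1500 genes in 171 pubertal and 152 adult cells, and values are given after thinning each of these to 100000 read pairs, so that 1 read is 10 CPM (counts scaled to a common total). Cells with Krt14 or Acta2 at 100 CPM or more before thinning are called basal-marked, and cells with Krt8 or Krt18 at that level but neither basal gene luminal-marked. Basal-marked cells were 79 of 171 in puberty (46.2%, interval 38.6 to 54.0) and 110 of 152 in the adult (72.4%, 64.5 to 79.3). In 3 pubertal and 9 adult cells the higher of the 2 genes lay between 100 and 200 CPM, just inside the limit, and in 4 and 12 cells it lay between 50 and 100 CPM. Retained adult cells numbered 48 to 188 in their titles (107 cells, 90 basal-marked) differ from the other 45 (20 basal-marked) in their content of the small nuclear RNA Rn7sk, so adult values are given for both sets. The basal-marked class was not free of luminal RNA: in puberty 79.7% of its cells had Krt8 at 50 CPM or more and 53.2% had Krt5. A narrower class of basal-dominant cells, with more Krt14 plus Acta2 than Krt8 plus Krt18, held 51 pubertal and 80 adult cells. Doublets were not called.

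The genes lie on 6 chromosomes (mm10). Lama1 (gene 16772; chromosome 17, 67697127 to 67822645) encodes the alpha chain of laminin-111, the laminin of early basement membranes. Reln (gene 19699; chromosome 5, 21884454 to 22344705) encodes reelin, a secreted glycoprotein that signals through the receptors Vldlr and Lrp8 to the adaptor Dab1. Spon2 (gene 100689; chromosome 5, 33213518 to 33218254) encodes a secreted matrix protein of the spondin family. Mest (gene 17294; chromosome 6, 30733506 to 30748466) is an imprinted gene expressed from the paternal allele, with high levels in the embryo. Moxd1 (gene 59012; chromosome 10, 24223517 to 24302783) encodes a monooxygenase of the endoplasmic reticulum related to dopamine beta-hydroxylase, and Serpinb11 (gene 66957; chromosome 1, 107362314 to 107380475) an intracellular serpin of clade B. Ctnnd2 (gene 18163; chromosome 15, 30172534 to 31029344) encodes delta-catenin, a partner of cadherins. Slc6a15 (gene 103098; chromosome 10, 103367808 to 103419379) encodes a sodium-dependent transporter of neutral amino acids. Cpm (gene 70574; chromosome 10, 117629500 to 117687352) encodes carboxypeptidase M, a membrane-bound enzyme that trims basic residues from peptides. The use of strand in counting is not given in the sources used here, and reads of genes that overlap others are uncertain: Mest overlaps Copg2 and the microRNA gene Mir335, which had 0 reads in the retained cells, and Reln, Ctnnd2, Slc6a15 and Cpm also overlap annotated genes.

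Promoter sequences were looked up because several of these genes were found in the same cells, as described further on. RefSeq promoters (GRCm38.p6) were at hand for 6 of the 9 genes, not for Lama1, Slc6a15 and Spon2. The 250 bases before the start were searched on both strands for TATAAA (the TATA box), GGGCGG (the GC box), GGAATG (the core of a TEAD site), TGACTCA (an AP-1 site) and the CArG box of serum response factor. GGGCGG was the single motif found, in 4 of the 6 genes, and 32.7% of all 32851 promoters in the table hold it. TATAAA is in 12.4% of them, GGAATG in 12.6%, TGACTCA in 4.46% and the CArG box in 1.47%. Shown are genes of pairs that were often found together, 5′ to 3′ on the strand of the gene, with GGGCGG or its reverse complement in capitals.
Moxd1, chr10:24223267-24223516, plus strand: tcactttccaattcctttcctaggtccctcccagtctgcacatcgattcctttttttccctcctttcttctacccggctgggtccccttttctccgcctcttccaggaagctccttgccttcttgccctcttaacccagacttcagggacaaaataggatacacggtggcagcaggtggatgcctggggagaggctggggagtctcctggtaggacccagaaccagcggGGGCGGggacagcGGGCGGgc
Serpinb11, chr1:107362064-107362313, plus strand: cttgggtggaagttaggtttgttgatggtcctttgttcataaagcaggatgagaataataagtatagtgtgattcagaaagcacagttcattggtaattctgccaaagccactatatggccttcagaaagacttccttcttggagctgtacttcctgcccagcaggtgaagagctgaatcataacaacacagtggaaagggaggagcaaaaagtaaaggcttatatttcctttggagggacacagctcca
Ctnnd2, chr15:30172284-30172533, plus strand: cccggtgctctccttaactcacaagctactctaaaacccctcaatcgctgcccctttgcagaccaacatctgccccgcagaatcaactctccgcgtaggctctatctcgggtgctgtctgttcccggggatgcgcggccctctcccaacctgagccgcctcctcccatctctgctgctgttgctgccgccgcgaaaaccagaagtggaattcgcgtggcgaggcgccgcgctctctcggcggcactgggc
Reln, chr5:22344706-22344955, minus strand: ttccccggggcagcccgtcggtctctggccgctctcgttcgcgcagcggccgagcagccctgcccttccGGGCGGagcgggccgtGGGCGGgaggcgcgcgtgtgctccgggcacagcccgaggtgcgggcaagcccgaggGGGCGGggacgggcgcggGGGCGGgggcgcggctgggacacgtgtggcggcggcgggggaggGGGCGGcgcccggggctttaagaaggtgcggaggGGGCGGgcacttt
Mest, chr6:30737800-30738049, plus strand: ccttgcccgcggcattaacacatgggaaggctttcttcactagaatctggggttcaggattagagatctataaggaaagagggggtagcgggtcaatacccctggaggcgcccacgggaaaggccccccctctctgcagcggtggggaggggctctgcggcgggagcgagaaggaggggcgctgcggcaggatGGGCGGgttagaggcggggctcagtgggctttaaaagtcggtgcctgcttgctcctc
The windows differ widely in composition. Reln has 80.0% G or C with 37 CpG dinucleotides and 6 GC boxes, whereas Serpinb11 has 42.8% with 0 CpG dinucleotides and no GC box. Moxd1 (58.4%, 8 CpG), Mest (62.4%, 14 CpG) and Ctnnd2 (62.8%, 21 CpG) lie between them and all exceed the median over all promoters of 52.4% and 6 CpG. Moxd1 and Serpinb11, a pair often found in the same cells, differ in these measures.

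In pubertal basal-marked cells the member genes ranged from common to rare. Cells at 50 CPM (5 reads) or more are called positive. Moxd1 was positive in 50 of 79 cells (63.3%, 51.7 to 73.9) and Ctnnd2 in 47 (59.5%, 47.9 to 70.4). These were the only members positive in more cells than not. Counted by any thinned read, Lama1 was also in more cells than not, with 42 of 79 (53.2%). Lama1 was positive in 25 cells (31.6%, 21.6 to 43.1), Serpinb11 in 24 (30.4%), Reln in 22 (27.8%), Spon2 in 20 (25.3%), Mest in 17 (21.5%) and Slc6a15 in 15 (19.0%). Their intervals overlap, so these 6 genes cannot be put in order by share. Cpm was positive in 3 cells (3.8%, 0.8 to 10.7).

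**Figure D1:**
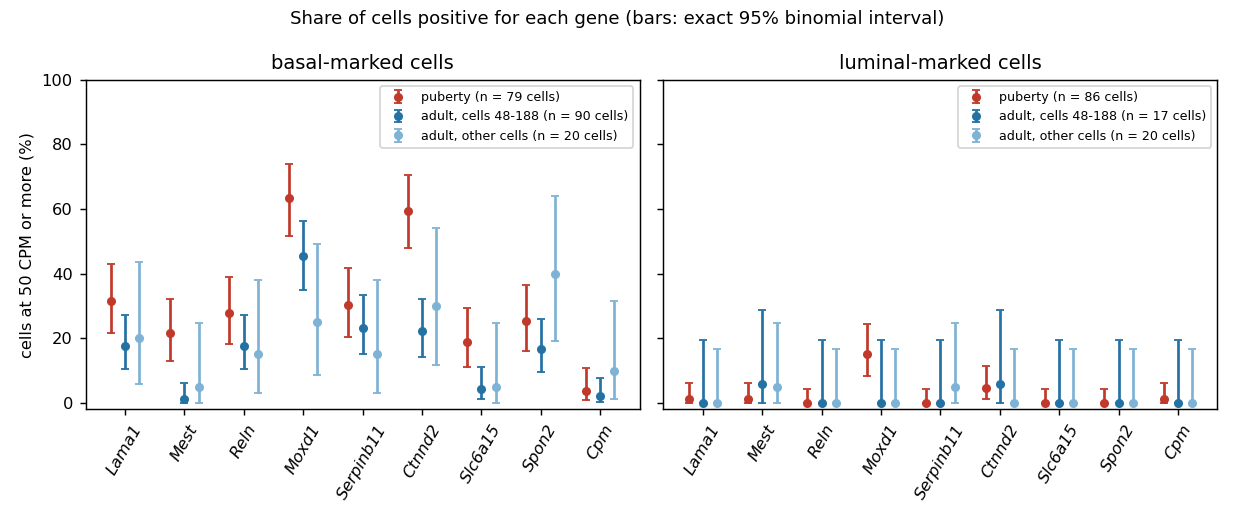
Share of cells positive (50 CPM or more after thinning, y axis in percent) for each of the 9 member genes in basal-marked cells (left; 79 pubertal, 90 adult of cells 48 to 188 and 20 other adult cells) and luminal-marked cells (right; 86, 17 and 20 cells), with exact 95% binomial intervals for counting error only. Moxd1 and Ctnnd2 lead among pubertal basal-marked cells at 63.3% and 59.5%, Mest is at 21.5% there and at 1.1% in adult cells 48 to 188, and the luminal-marked cells lie near 0 except for pubertal Moxd1 at 15.1%.

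In positive cells the transcripts were abundant and unevenly shared. Ctnnd2 ran from 0 to 5190 CPM over the 79 pubertal cells with a median of 130, and its median in positive cells was 670 CPM. Moxd1 ran from 0 to 3930 CPM with a median of 110 and 440 CPM in positive cells. Serpinb11 reached 4660 CPM, although its median over all cells was 0. For Reln the highest cell had 3200 CPM and the positive median was 605, and for Lama1 the values were 1890 and 570 CPM. All distributions thus started at 0 and had a long upper tail, as the plot of single cells shows. Mest reached 3250 CPM with a positive median of 530, Spon2 2550 with 235 and Slc6a15 1960 with 220. A single cell, pubertal cell 160, held 87.5% of the Cpm reads at 3220 CPM, and the Cpm mean describes that cell. The highest cell held 37.1% of the reads of Slc6a15 and from 8.8% (Ctnnd2) to 25.8% (Spon2) of those of the other 7 genes.

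**Figure D2:**
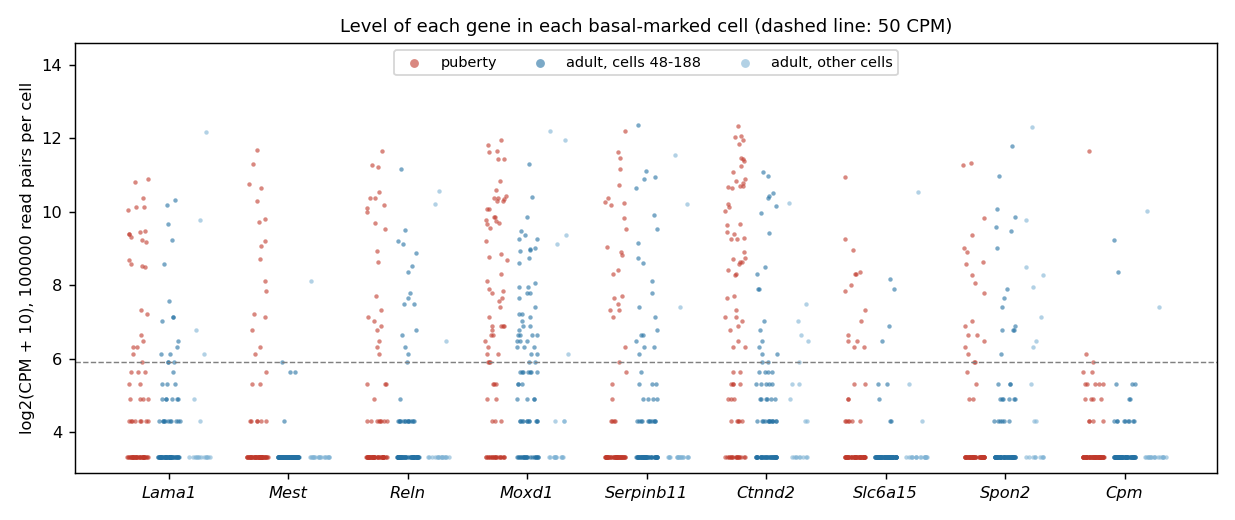
Level of each member gene in every basal-marked cell by stage and adult set, as log2(CPM + 10) after thinning to 100000 read pairs; each point is a cell, the lowest row holds cells with 0 reads and the dashed line marks 50 CPM, the limit for a positive cell. Most points lie on the lowest row for 7 of the genes, and the upper tails reach 5190 CPM (Ctnnd2) in puberty.

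Compared per kilobase of counted transcript, mean levels in pubertal basal-marked cells fell into 3 bands. Serpinb11 (182 RPKM), Moxd1 (180) and Ctnnd2 (126) were highest. Mest (67.1 RPKM) and Spon2 (56.0) came next, and Reln (20.6), Lama1 (20.4), Slc6a15 (18.3) and Cpm (9.0) were lowest. Serpinb11 and Moxd1 had like means from unlike shares of cells, 30.4% for the former and 63.3% for the latter. Neighbours within a band cannot be told apart, since no spread between animals is known.

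Luminal-marked cells, which give the level in cells of the other layer of the same libraries, had few member transcripts. Of 86 in puberty, none was positive for Reln, Serpinb11, Slc6a15 or Spon2 (0 of 86 cells, which allows a share of up to 3.49% by the limit of 3 counts and up to 4.20% by the exact interval), and 1 each for Lama1, Mest and Cpm. Ctnnd2 was positive in 4 (4.7%). Moxd1 was the exception, positive in 13 (15.1%) with a mean of 21.5 CPM against 554 CPM in basal-marked cells. In the adult, 37 luminal-marked cells included 2 positive for Mest, 1 for Serpinb11 and 1 for Ctnnd2, and none for the other 6 genes. Adult Mest was positive in 2 of 110 basal-marked cells (1.8%) as well, so its basal-marked share was no larger than its luminal-marked one there.

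All 9 genes were positive in a larger share of pubertal than of adult basal-marked cells, though for Cpm (3.8% and 3.6%) and Spon2 (25.3% and 20.9%) by little. Moxd1 was positive in 41.8% of adult basal-marked cells (32.5 to 51.6), Ctnnd2 in 23.6% (16.1 to 32.7), Serpinb11 in 21.8%, Lama1 in 18.2%, Reln in 17.3% and Slc6a15 in 4.5% (1.5 to 10.3). The pubertal and adult intervals were apart for Mest, Moxd1, Ctnnd2 and Slc6a15 and overlapped for the other 5 genes. Against adult cells 48 to 188 all 9 shares were again higher in puberty. Against the other adult cells 7 of 9 were, the exceptions being Spon2 (40.0% of 20 cells, 19.1 to 63.9) and Cpm (10.0%). The genes were chosen with this contrast in use and no share over all genes is given for it, so nothing is read from these counts.

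As ratios of mean CPM between pubertal and adult basal-marked cells, members past a log2 ratio of 1 numbered 6 of 9, against 24.6% of the 7719 genes at 20 CPM or more in 1 stage. The choice of the genes used this contrast, so nothing is read from that count. Their median log2 ratio was 1.34, where the median of all genes was 0.11, or −0.06 with TMM scaling, a shift to be kept in mind for each ratio. Against adult cells 48 to 188 the member median was 1.81 (all genes 0.16). Against the other adult cells, nearer to puberty in Rn7sk, the member median was 0.16 (all genes 0.47). Mest stood out with a mean of 186 CPM in pubertal and 3.73 CPM in adult cells and a log2 ratio of 5.31 (interval 5.20 to 6.13). It was 6.19 against adult cells 48 to 188 and 3.69 against the others, where all Mest reads were in 1 cell. Ctnnd2, at 749 and 138 CPM, had a log2 ratio of 2.43 (2.35 to 2.52), with 2.32 and 3.03 against the adult sets. These 2 genes were past 1 against every adult set.

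For most of the remaining genes the size depended on the adult set. Moxd1 averaged 554 CPM in pubertal and 218 CPM in adult cells, and its log2 ratio of 1.34 became 1.82 against adult cells 48 to 188 and 0.16 against the others. Reln (241 and 84.5 CPM) had 1.50, with 1.71 and 0.80. Serpinb11 (310 and 200 CPM) had 0.63, with 0.66 and 0.51. The matrix gene Lama1 (194 and 102 CPM) had 0.92, with 1.64 and −0.54. Adult cell 223, at 4620 CPM, held 41.2% of all adult Lama1 reads and 81.5% of those in its set. With the highest cell of each side left out, the Lama1 ratio was 1.50 over all adult cells and 1.62 against that set. Likewise adult cell 43 held 97.4% of the Slc6a15 reads of its set at 1480 CPM, and the log2 ratio of Slc6a15 was 1.62 over all adult cells, 2.78 against cells 48 to 188 and −0.18 against the others. Spon2 was the 1 member with more RNA in the adult (125 CPM in pubertal and 163 CPM in adult cells, log2 ratio −0.38, interval −0.50 to −0.27), with 0.06 and −1.50 against the adult sets. Cpm had 1.10, which became −0.90 without the highest cells. Past a log2 ratio of 1 were 7 of 9 members against cells 48 to 188 (27.1% of genes) and 2 of 9 against the others (39.6%). Over all retained cells, luminal ones included, 2 of 9 were past it (19.9% of genes), with 4 of 9 against cells 48 to 188 (25.7%) and 2 of 9 against the others (28.1%), and the median of the 9 was 0.75.

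Whether the genes were found in the same cells was counted within basal-marked cells. In puberty 12 of the 79 cells were positive for none of the 9, 11 for 1, 13 for 2, 13 for 3, 16 for 4, 6 for 5, 4 for 6, 3 for 7 and 1 for 8. No cell had all 9. The counts thus formed a continuous range with a median of 3 and no gap between cells with few and with many. Cells with 3 or more members, called member-high, were 43 of 79 (54.4%, 42.8 to 65.7). In the adult 22 of 110 were member-high (20.0%, 13.0 to 28.7), with a median of 1 member, and the adult sets were alike at 17 of 90 (18.9%) and 5 of 20 (25.0%, 8.7 to 49.1). No luminal-marked cell was member-high, 0 of 86 in puberty and 0 of 37 in the adult. By title number in runs of 50, pubertal member-high shares lay between 33.3% and 78.6% of basal-marked cells and adult ones between 13.8% and 25.0%. The highest run was that of pubertal cells 51 to 100, with 11 of 14. Whether a capture or sort lies behind that run was not tested.

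**Figure D3:**
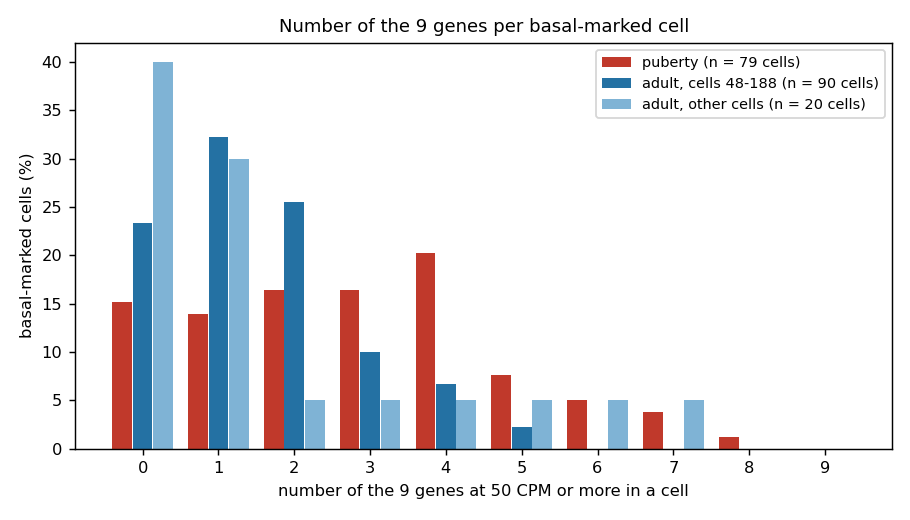
Share of basal-marked cells, in percent, by the number of the 9 member genes at 50 CPM or more in the cell, for puberty (79 cells), adult cells 48 to 188 (90) and the other adult cells (20). Pubertal cells spread from 0 to 8 members with a median of 3, and the median adult cell had 1.

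The cells with most members shared most of them, but their sets were not identical. In puberty 1 cell had 8 of the 9 members and 3 cells had 7, so these sets necessarily overlap in most genes. The cells differed in part in the few members that they lacked, and in the levels of those they had. Pubertal cell 94, with 8, had 3160 CPM of Serpinb11, 2770 of Ctnnd2, 1720 of Mest and 1160 of Reln, with no read of Spon2. Pubertal cell 37 had 2510 CPM of Mest and 1330 of Lama1, with no read of Serpinb11. Pubertal cell 110 had 2430 CPM of Ctnnd2 and 1800 of Lama1 without Mest, and pubertal cell 157 had 2460 CPM of Spon2 without Serpinb11. In the adult, cell 43 had 7 members, led by Spon2 (5040 CPM) and Moxd1 (4710 CPM), with no read of Lama1 or Mest. Each of these 5 cells had 0 thinned reads of at least 1 member.

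Members were then compared for how often they occurred together. For each gene, the share of positive cells was taken among cells with 2 or more of the other 8 members and among cells with none of them. In puberty it was higher among the former for 9 of 9 genes. Moxd1 was positive in 36 of 46 cells with 2 or more others (78.3%) and in 4 of 16 with none (25.0%). Ctnnd2 was positive in 77.1% and 14.3%, Serpinb11 in 41.8% and 0% (0 of 12), Lama1 in 39.6% and 7.7%, Reln in 36.4% and 7.7%, Mest in 29.1% and 0%, and Slc6a15 in 26.8% and 0%. Spon2 was the least tied, with 27.8% (16.5 to 41.6) and 20.0% (4.3 to 48.1). In the adult the same direction was seen for 9 of 9 genes, with Moxd1 at 59.4% and 31.0%, Serpinb11 at 36.6% and 12.1% and Lama1 at 27.5% and 9.4%. Within adult cells 48 to 188 alone it held for 7 of 9. Cells differ in how many genes they show at all: the number of members correlated with the genes detected after thinning at r = 0.15 over the 79 pubertal and 0.36 over the 110 adult cells. It correlated with read pairs before thinning at r = 0.22 and −0.12. Cells differed in luminal content too. Of the pubertal cells with no member 3 of 12 were basal-dominant, against 33 of 43 member-high cells. In the adult these were 12 of 29 and 21 of 22. No share over all genes is given for the counts of 9 of 9. The part of these measures in the co-occurrence was not tested.

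Pairs of genes were uneven. Of the 36 pairs, 32 in puberty were found together more often than the product of their shares would give, 28 in the adult, 19 in adult cells 48 to 188 and 27 in the other adult cells. Rare genes seldom meet, so the count was repeated over genes positive in 10% or more of the cells, a limit added after the values were seen. In puberty it was then 25 of 28 member pairs, against 58.8% of the pairs among all 5430 such genes. In the adult it was 15 of 15 (65.4% of all pairs), in adult cells 48 to 188 it was 13 of 15 (63.2%), and in the others 18 of 21 (49.3%). Member pairs thus lay above the share over all pairs in each set, on cells that also served to choose the genes. In puberty all 9 members had the larger share in basal-marked than in luminal-marked cells, and 8 in the adult. The basal-marked class mixes cells with more and less luminal RNA, and the pairs of all genes include luminal genes. The counts therefore cannot tell a shared subset from a shared layer, and they were not repeated in basal-dominant cells. Every pair occurred together in at least 1 pubertal cell, while 6 pairs never did in the adult. Serpinb11 lay almost wholly within the Moxd1-positive cells of puberty: 22 of its 24 positive cells had Moxd1, and Serpinb11 was positive in 44.0% of Moxd1-positive and 6.9% of other cells. Moxd1 in turn was positive in 78.7% of Ctnnd2-positive and 40.6% of other cells. Reln, the ligand, was found in 52.0% of Lama1-positive and 16.7% of other cells. Slc6a15 was positive in 47.1% of Mest-positive and 11.3% of other cells, in 41.7% of Serpinb11-positive and 9.1% of other cells, and in 29.8% of Ctnnd2-positive and 3.1% of other cells. A few pairs went the other way. Mest was positive in 16.0% of Lama1-positive and 24.1% of other cells, and Spon2 in 16.7% of Serpinb11-positive and 29.1% of other cells. With 79 cells from 1 sample per stage, none of these differences has a replicate check.

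**Figure D4:**
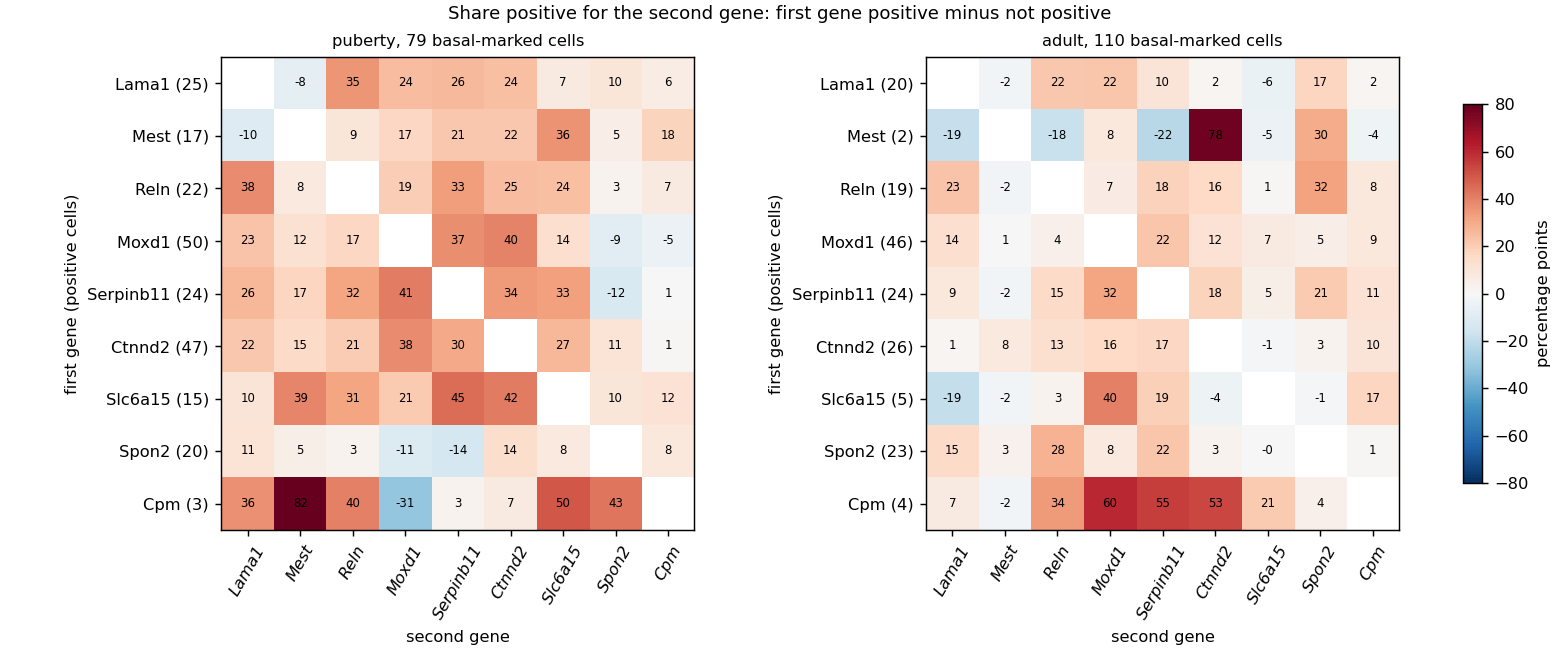
For each pair of member genes in pubertal (left, 79) and adult (right, 110) basal-marked cells, the share positive for the column gene among cells positive for the row gene minus that among the other cells, in percentage points; red is more, blue fewer, and the number of cells positive for the row gene stands in parentheses. In puberty most squares are red, with Reln in 52.0% of Lama1-positive and 16.7% of other cells, and rows of few cells (Cpm with 3, adult Mest with 2) give the extreme values.

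Adult pairs partly differed. Reln and Spon2, both of which encode secreted proteins, had the widest contrast named here: Spon2 was positive in 47.4% of Reln-positive and 15.4% of other adult cells. Moxd1 was positive in 60.0% of Lama1-positive and 37.8% of other cells, and Serpinb11 in 34.8% of Moxd1-positive and 12.5% of other cells. Within cells 48 to 188 the 3 contrasts were 50.0% against 9.5% for Spon2, 56.3% against 43.2% for Moxd1 and 31.7% against 16.3% for Serpinb11. In the other 20 cells Spon2 went the other way, in 33.3% of 3 Reln-positive cells and 41.2% of the rest. The Moxd1 and Serpinb11 pair was on the same side in both stages and both adult sets, as were the pairs of Lama1 with Moxd1 and with Reln.

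Contractile gene RNA was compared between member-high and member-low cells (0 to 2 members) over 12 genes of the smooth muscle apparatus. In puberty their median log2 ratio was −0.32, 3 of 12 above and 9 below 0, while the median over all 7736 genes was 0.10. None was past 1 on the high side (25.5% of all genes) and 3 were past −1 on the low side (20.9%), which is close to the background. The 3 were Smtn, Lmod1 and Tagln. Smtn (smoothelin) had 44.0 CPM in the 43 member-high and 241 CPM in the 36 member-low cells, a log2 ratio of −2.43 (interval −2.69 to −2.23). Tagln (transgelin) ran from 0 up to 8050 CPM with a median of 980 in the former and up to 17510 with a median of 1975 in the latter. Its means were 1724 and 3969 CPM, a log2 ratio of −1.20. The cells overlapped widely for both genes. Lmod1 (leiomodin, 13.0 and 43.6 CPM) had −1.67, which was −0.99 without the highest cells. Tpm2, a tropomyosin gene, had −0.61 and Mylk, the myosin light chain kinase gene, −0.41. Cnn1 (calponin) had 496 and 326 CPM (0.60) and Cald1 (caldesmon) 874 and 628 CPM (0.48), and Tpm1 was at 0.16. Myh11 (−0.12), Oxtr (−0.09), Myl9 (−0.26) and Actg2 (−0.38) were closer to 0. Acta2, which helps define the class, had 5789 and 4723 CPM (0.29) and Krt14 653 and 939 CPM (−0.52).

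Per cell, the contractile score, a mean of log2(CPM + 10) over the 12 genes, had a median of 7.12 (quartiles 5.67 and 7.77) in pubertal member-high and 7.21 (5.96 and 8.20) in member-low cells. The quartiles overlap almost fully. By number of members the medians were 6.14 with none, 7.75 with 1, 7.46 with 2, 7.28 with 3, 6.18 with 4 and 6.67 with 5 or more, so cells with no member were as low as cells with 4. Across the 79 cells the number of members and the score had a Pearson r of −0.04 (Spearman rho −0.06). The cells share stage, libraries and depth, and the value is a description. Luminal RNA moved with the number of members: the summed level of the 4 luminal markers had a median of 1180 CPM (0 to 21790) in member-high and 4590 CPM (40 to 14750) in member-low cells, and all 4 had log2 ratios below 0. The 12 cells with no member had a median luminal level of 6465 CPM. Of these, the 3 basal-dominant cells had a median score of 7.39. The part of luminal RNA in the score was not tested.

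Restricting the count to basal-dominant cells made the difference larger. Among 33 member-high and 18 member-low pubertal cells, 11 of the 12 contractile genes were lower in the former, with a median of −0.82 where all genes had 0.30. None was past 1 on the high side (35.4% of genes) and 4 were past −1 on the low side (23.6%). Smtn was at −3.23, Lmod1 at −2.49, Tagln at −1.62 (2037 and 6271 CPM) and Tpm2 at −1.06, whereas Cald1 was at 0.40. Acta2 was at −0.19 and Krt14 at −1.09. The 8 basal markers, these and Myh11 among them, had a median of −0.14 in basal-dominant pubertal cells, with 7 below 0. The class is itself chosen on Acta2 and Krt14, and the part of that choice in the difference was not tested. The median score was 7.33 (5.84 to 8.26) against 8.16 (7.44 to 8.66), and the quartiles still overlapped.

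**Figure D5:**
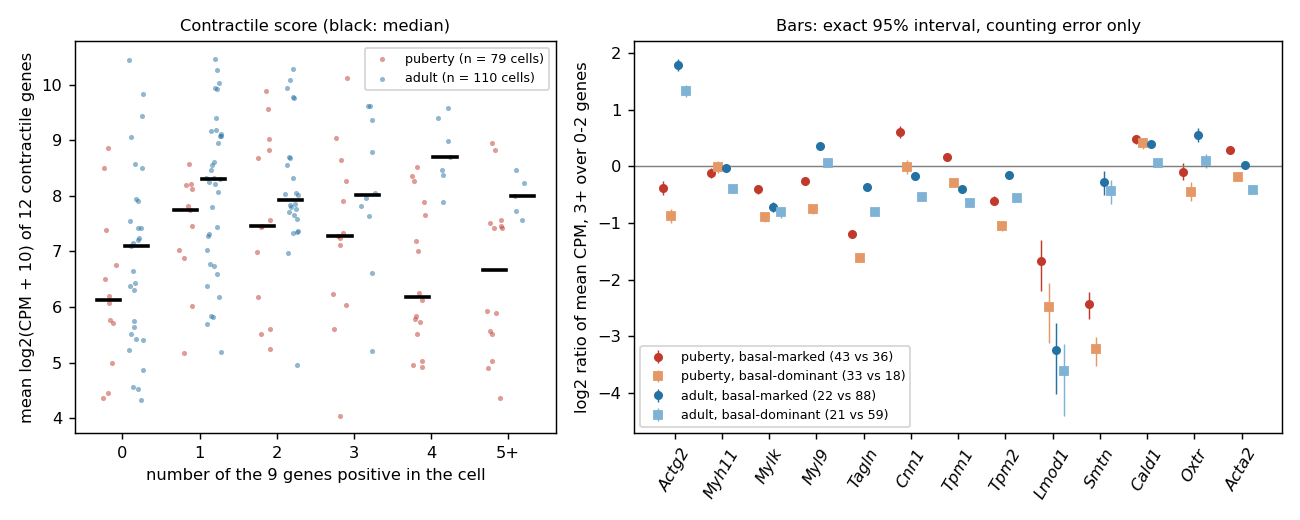
Left, contractile score (mean log2(CPM + 10) over 12 genes) of each basal-marked cell by the number of member genes positive, in puberty (79 cells) and the adult (110 cells), with medians in black. Right, log2 ratio of mean CPM in cells with 3 or more members over cells with 0 to 2 for each contractile gene and Acta2, in basal-marked and basal-dominant cells of each stage, with exact 95% intervals for counting error only. Pubertal medians on the left run from 6.14 with no member to 7.75 with 1 and 6.18 with 4; on the right Smtn (−2.43), Lmod1 (−1.67) and Tagln (−1.20) lie lowest in puberty and Actg2 (1.78) highest in the adult.

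In the adult the picture partly differed. The median log2 ratio of the 12 genes was −0.16 between 22 member-high and 88 member-low cells (all genes 0.02), with 1 past 1 (23.7% of genes) and 1 past −1 (26.6%). The 1 high gene was Actg2, the enteric smooth muscle actin gene, at 661 and 191 CPM (1.78). It was positive in 63.6% of member-high and 22.7% of member-low cells, and it was at 1.99 within cells 48 to 188 and at −0.98 within the others. The low gene was Lmod1 at 10.5 and 108 CPM (−3.24). Member-high adult cells had the higher score per cell, with a median of 8.30 (7.84 to 8.93) against 7.81 (6.71 to 8.68), and the number of members and the score had an r of 0.27 over 110 cells and 0.27 over the 90 cells of 48 to 188. Within cells 48 to 188 (17 member-high) 1 contractile gene was past 1 (25.3% of genes) and 2 past −1 (27.6%), and within the other 20 cells, of which 5 were member-high, 3 (36.3%) and 2 (40.0%). Among basal-dominant adult cells 1 was past 1 (26.8%) and 1 past −1 (25.7%), and the median scores were 8.37 and 8.32, a smaller gap. The median log2 ratio of the 12 genes was −0.49 there, with 8 below 0, where all genes had 0.07. This is the side seen in puberty. It was −0.56 within cells 48 to 188, with 10 below 0, and −0.26 within the others, with 8 below 0. The basal markers were lower as well in basal-dominant member-high adult cells, with a median of −0.42 and 8 of 8 below 0. Member-high adult cells also showed more genes, with medians of 3472.5 and 2705.5 after thinning. Luminal RNA differed by list in member-high basal-marked cells. Luminal markers had a median log2 ratio of −1.07 (4 of 4 below 0) and luminal progenitor markers −1.05 (5 of 5). Mature luminal markers had 0.40 with 4 of 6 above 0, or −0.48 without the highest cells. They were at 1.08 within cells 48 to 188 and at −4.74 within the others. In basal-dominant adult cells the medians were 0.04, −0.55 and 1.97, in the same order. In basal-marked cells the summed luminal level had a median of 2655 CPM (0 to 8790) against 3460 CPM (0 to 48270). The part of these in the score was not tested.

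Contractile RNA was also compared gene by gene. Taken so in puberty, cells positive for Mest had a mean score of 6.14 ± 1.34 (SD over 17 cells) against 7.14 ± 1.41 in the other 62. Serpinb11-positive cells had 6.28 against 7.21, and Slc6a15-positive cells 6.26 against 7.08. In basal-dominant cells the positive cells were lower still, with differences of −1.55 for Mest, −1.14 for Serpinb11 and −1.03 for Slc6a15. On the other side, the score was higher by 0.48 in Spon2-positive, 0.43 in Ctnnd2-positive, 0.42 in Lama1-positive and 0.30 in Reln-positive cells, and Moxd1 was at 0.03. Cpm-positive cells were higher by 0.98, on 3 cells. For the other 8 genes each difference in basal-marked cells was smaller than the SD in either set of cells. Ctnnd2 changed sign in basal-dominant cells (−0.14), as did Moxd1 (−0.19), whereas Spon2 (0.45) and Lama1 (0.33) kept theirs and Reln was at 0.06.

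Grouped after these values were seen, Mest, Serpinb11 and Slc6a15 had 2 or more positive in 18 pubertal basal-marked cells, whose median score was 5.59 against 7.45 in cells with none of the 3. Lama1, Reln and Spon2 had 2 or more in 19 cells, with a median of 7.46 against 6.18 in cells with none. The contrast has the sense in which the groups were made and is shown for its size alone. In the adult, 17 cells had 2 or more of Lama1, Reln and Spon2, with a median of 8.70 against 7.42. For the other 3 genes 2 such adult cells were found. Singly, adult Reln-positive cells had a score higher by 1.14 and Spon2-positive cells by 1.15, or 0.48 and 0.53 among basal-dominant cells. Within cells 48 to 188 these differences were 1.29 and 1.07, and within the others 0.37 and 1.70. Adult Serpinb11 was at 0.00 and Slc6a15 at −0.28. Of the 9 genes, 3 in puberty and 1 in the adult had the lower mean score in their positive basal-marked cells, and 5 in each stage among basal-dominant cells.

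Genes known to act with the member genes or related to them were looked at next, from whole lists; genes past a log2 ratio of 1 or −1 are to be read against the shares over all genes, 25.5% and 20.9% in puberty, 23.7% and 26.6% in the adult, 25.3% and 27.6% within adult cells 48 to 188 and 36.3% and 40.0% within the others. Of the reelin pathway, 3 of 6 genes reached 20 CPM in pubertal member-high or member-low cells, and Dab1, the adaptor, had 0 reads in basal-marked cells of either stage. The receptor gene Vldlr had 95.8 CPM in member-high and 27.8 CPM in member-low cells (log2 1.75, interval 1.47 to 2.12) in puberty but 3.18 and 46.3 CPM (−3.50) in the adult. Within adult cells 48 to 188, 2 genes of the list reached the floor, 1 past 1 and 1 past −1, with a median of −0.34. Within the others 4 did, with a median of −1.56. Lrp8, the other receptor, had 12.8 CPM in both pubertal sets. The kinase gene Fyn was at −1.12.

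Of 16 genes for laminins, nidogens and their receptors, 13 reached the floor in puberty, 6 were past 1 and 2 past −1, and their median was 0.15. Lamb1, the beta chain that joins Lama1 in laminin-111, had 429 and 164 CPM (1.38, interval 1.25 to 1.52) and was positive in 67.4% of member-high and 27.8% of member-low cells. In the adult Lamb1 was at 0.97, with −0.84 within cells 48 to 188 and 2.58 within the others. Itga3, an integrin chain, was at 1.29 in puberty. Lama5, the alpha chain of the laminins of mature epithelium, had 26.0 and 76.1 CPM (−1.51) in puberty and was at −1.64 in the adult. Lama4 was at −3.12, but 1 member-low cell held most of its reads and it was at −0.34 without the highest cells.

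Of 7 delta-catenin relatives and cadherins, none was past 1 and 2 were past −1, Cdh3 (P-cadherin, −1.25, and −0.06 without the highest cells) and Arvcf (−1.17, on 10.5 and 24.7 CPM). Ctnnd1 (p120-catenin) was at −0.89. Among the nearest relatives of the other members, 3 of 6 reached the floor. Serpinb10 had 39.3 CPM in member-high cells and 1 read in member-low cells (0.28 CPM), a log2 ratio of 4.98 with an interval from 4.65 to 12.46. Spon1 had 202 and 95.0 CPM (1.08) in puberty and 0 and 72.3 CPM in the adult, at least 53.0-fold lower in member-high cells with the floor of 3 counts over the group, and all adult reads were in cells 48 to 188. Serpinb5 was at −0.44.

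Imprinted genes, the class to which Mest belongs, had 5 of 10 over the floor, with a median of 1.32. Cdkn1c, a cell cycle inhibitor, had 195 and 59.7 CPM (1.69) and was positive in 46.5% and 16.7% of cells. H19 had 25.6 CPM in member-high and 0 in member-low cells, at least 30.7-fold higher, with most reads in 1 cell. Peg3 was at 1.32. In the adult the list had a median of −2.12 and Cdkn1c was at −0.51. Within cells 48 to 188 the median was −2.46, and within the others it was 4.55 over 2 genes, or 4.05 with a gene at 0 in 1 group set at its bound.

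The 14 other genes of the basal cluster that the study drew from these cells had a median of 1.44, with 10 past 1 and 1 past −1; being drawn from the same cells, they are not independent of the members. Rtn1 had 148 and 22.2 CPM (2.68), Sema6d, a semaphorin gene, 60.2 and 9.17 CPM (2.59), and Bmp7 25.8 and 0 CPM, at least 31.0-fold higher. Hs6st2, which encodes a heparan sulfate sulfotransferase, went the other way with 11.9 and 79.2 CPM (−2.64). In the adult Rtn1 was at −0.40, Sema6d at −0.54 (2.38 within cells 48 to 188 and −2.82 within the others) and Hs6st2 at 1.54.

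Cell cycle genes had a median of 0.48 in puberty, with 3 of 10 past 1, and of 1.91 in the adult, with 7 of 9. Within cells 48 to 188 it was 1.38 (6 of 8 past 1), and within the others 3.73 (3 of 6), or 3.22 with the genes at 0 in 1 group set at their bounds. Mcm5, a replication helicase subunit, had 120 and 20.3 CPM (2.51) in puberty and 40.0 and 1.02 CPM (4.34) in the adult, or 1.88 there without the highest cells. Rrm2, a subunit of ribonucleotide reductase, was at 2.02 and 1.91. Pcna, in contrast, was at −0.66 in puberty and 0.38 in the adult. Few cells carried these transcripts: Mcm5 was positive in 18.6% of pubertal member-high cells. In basal-dominant cells the list had a median of 2.44 in puberty, with 6 of 9 past 1 (35.4% of genes). In the adult it was 1.90 there, with 6 of 9 (26.8%).

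Markers of other cell types were compared in the same way. The 8 basal markers had a median of 0.10 in puberty, and Trp63, the basal transcription factor, had 228 and 104 CPM (1.12). Markers of luminal progenitors had −2.51 with 4 of 6 past −1, led by the secreted protein gene Wfdc18 (209 and 2601 CPM, −3.63), and markers of mature luminal cells −0.83. Fibroblast markers had 1.89 with 4 of 6 past 1. Their summed level had a median of 0 CPM in member-high (0 to 18250) and 10 CPM in member-low cells (0 to 12340), and 3 of 43 against 1 of 36 cells had 3 or more of the 7 markers. A small number of cells therefore held this signal. With cells of 3 or more fibroblast markers left out, member-high cells were 53.3% of basal-marked cells in puberty and 20.6% in the adult. The contractile medians were then −0.31 and −0.13. The part of lower fibroblast marker levels in the member counts was not tested. In the adult the fibroblast median was 0.18 over 4 genes, and with genes at 0 set at their bounds it was −3.82 within cells 48 to 188 and 3.60 within the others. Pubertal endothelial markers had 1.08 (2 genes), pericyte markers −1.07 (1 gene), Schwann cell markers 1.57 (2 genes) and adipocyte markers −0.43 (1 gene). No immune marker reached the floor, and summed immune markers were at most 100 CPM in a cell.

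The genes whose levels ran most like the number of members across the 79 pubertal basal-marked cells were found among 5317 genes detected in 20% or more of them. The correlations are descriptions over cells that share library, depth and stage. Itm2a, a membrane protein gene, had r = 0.59 in puberty (416 CPM in member-high and 24.2 CPM in member-low cells) and 0.08 in the adult. Vcan (versican, a matrix proteoglycan) had 0.58 and 0.35, Mdk (the growth factor midkine) 0.55 and 0.34, Col4a1 (collagen IV of the basement membrane) 0.54 and 0.39, and Lgr4 (a receptor for R-spondins) 0.54 and 0.24. Serpinf1 had 0.52 and 0.13, and Fbln2 (fibulin 2, a matrix protein) 0.48 and 0.47. Vcan and Col4a1 also stand in the study's basal cluster. At the other end were Wfdc18 (−0.43 and −0.04), Tpst2 (−0.42 and 0.25), the claudin gene Cldn7 (−0.42 and −0.07) and Plet1 (−0.41 and −0.20). The median over all genes was 0.03 in puberty. In the 51 basal-dominant pubertal cells these 7 leading genes had r between 0.40 and 0.57.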

How the data were processed

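Each cell has a deposited table of unnormalized counts, whole read pairs assigned to each gene. The authors aligned reads to mm10 with Subread and counted them with featureCounts over the RefSeq annotation built into Rsubread, without pooling or filtering cells. Versions and strand are not given in the sources used here. The combined table repeats the single-cell tables and served only as a check. Counts were grouped by the stage in the labels.

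Of 27179 gene identifiers 25275 had a current gene, and the unmatched ones held 1.84% of reads. Dropping these along with 15 mitochondrial and 124 ribosomal protein genes left 25136. Retained cells (100000 or more read pairs, 1500 or more genes) had 100883 to 1354378 read pairs on them and were thinned to 100000 (seed 1). No pair of cells had identical counts. PCR copies are counted separately, since the protocol has no molecular identifiers.

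Log2 ratios are of mean CPM with a prior of 1 CPM, for genes at 20 CPM or more on either side. They carry exact conditional intervals, and shares carry exact Clopper-Pearson intervals, both at 95% and for counting error only. Where a group had 0 reads, 3 counts over the group gave the bound. Cells are not replicates, so nothing was tested. The ratio script was tested on simulated data. Analyses used Python 3.11.15, numpy 2.4.6, pandas 2.3.3, scipy 1.17.1 and matplotlib 3.10.9.

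The member genes, gene lists and markers were chosen with earlier results of these data known. Named genes were the members, up to 4 genes per list with the largest ratio, the contractile list, and the 8 highest and 4 lowest correlated genes, of which 1 is not reported here; partners and markers named beyond these were chosen after their values were seen. Alternatives changed coverage, thinning, the positive limit, the number of members, the basal class, scaling, and the adult set, or left out cells with 3 or more fibroblast markers.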

Additional observations from a re-analysis of the deposited data

How the results depend on the processing

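With 1 sample per stage, alternatives show only how far values moved. The median log2 ratio of the members over all retained cells, 0.75, was 1.24 with 200000 read pairs and 2500 genes, 0.96 against adult cells 48 to 188, 0.28 against the other adult cells, 0.63 with TMM scaling and 0.94 without the highest cell of each gene. In basal-marked cells it was 1.34, and under the same settings 1.80, 1.81, 0.16, 1.16 and 1.52. It stayed above 0 in all 8 and 11 alternatives run. Against the other adult cells, however, the basal-marked 0.16 lay below the median over all genes, 0.47. With TMM scaling as well, these were −0.14 and 0.18. Over all retained cells the 0.28 stood beside an all-gene median of 0.11. Member-high cells, 54.4% in puberty and 20.0% in the adult, were 74.7% and 60.0% when any read counted as positive, 70.9% and 41.8% with 2 or more members, and 38.0% and 10.9% with 4 or more.

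The contractile median, −0.32 in puberty and −0.16 in the adult, was the least stable value, below 0 in 20 of 22 pubertal and 19 of 24 adult alternatives. It was −0.21 and 0.087 with unthinned counts, −0.42 and −0.29 with Krt5 or Krt14 as the basal genes, −0.82 and −0.49 in basal-dominant cells, 0.17 and 0.26 when any read counted, −0.031 and 0.25 for 2 or more members against fewer, −0.53 and −0.27 for 4 or more against fewer, and 0.15 and 0.57 against cells with no member. Of the cells with no member, 3 of 12 in puberty and 12 of 29 in the adult were basal-dominant. The stricter coverage gave a contractile median of −0.56 in puberty, and TMM scaling −0.25 and the other adult cells 0.12 in the adult. Leaving each member out of the count in turn gave −0.70 (without Spon2) to −0.17 (without Serpinb11 or Mest) in puberty, and −0.33 (without Reln) to −0.040 (without Serpinb11) in the adult. The cause of these shifts was not tested. No paired analysis was possible because the numbers in the titles only name cells and no result comes from a test.

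At 100000 read pairs a gene under 50 CPM has fewer than 5 reads in a cell, and a cell called negative is not shown to lack the transcript. Differences between animals, sorts or captures cannot be told apart from differences between stages.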
